A study of Mus musculus with 6 samples.

Results

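The endothelial and angiogenic genes described here are 40 genes taken by symbol from the deposited tables, which hold 55484 genes. They comprise 22 genes of endothelium in general, 6 genes of sinusoidal and venous vessels, 6 arterial genes and 6 genes of secreted growth factors. All 40 matched a gene ID, all 40 were tested by the authors and all 40 reached 1 FPKM (the abundance unit of the tables, fragments corrected for transcript length and library size) in at least 1 group. Bulk polyadenylated RNA was taken from the femurs of wild-type C57BL/6 males on normal chow, in 3 libraries from mice with free access to a running wheel (ND/WCR) and 3 libraries from sedentary mice (ND/SED). The mice were divided at 6 weeks of age, housed singly for 6 weeks and killed at 12 weeks of age. The comparison asks what differs in the femur after voluntary running. No statement on the removal of marrow, muscle or periosteum was found in the labels, and the RNA is that of all cells left on or in the bone.

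Blood vessels are lined by endothelial cells, which respond to vascular endothelial growth factors (VEGFs) through receptor tyrosine kinases and to angiopoietins through the receptor TIE2. Notch signalling between neighbouring endothelial cells separates arterial from venous identity and restrains sprouting. In long bones, arteries feed capillaries near the growth plate that carry much endomucin, and these drain into the wide, fenestrated sinusoids of the marrow, so bone vessels differ from those of most other tissues.

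Each group has 1 pooled FPKM per gene in the authors' deposited table, with an interval that equals the value ± 2 standard deviations as the table's own test uses them. Values of single mice are not used here, so no spread between mice can be shown. The steps that 1 fragment makes in low FPKM gave effective depths of 1.73e+07, 1.72e+07 and 1.38e+07 fragments for the running libraries and 1.64e+07, 1.45e+07 and 1.43e+07 fragments for the sedentary libraries, an estimate that takes a group value as the mean of 3 libraries. Osteoblast and osteocyte genes were abundant, with summed levels of 4401 FPKM in running and 4161 FPKM in sedentary mice over 8 genes, and neutrophil genes summed to 43194 FPKM in running and 50966 FPKM in sedentary mice over 8 genes. Log2 folds give wheel running against sedentary as differences of log2(FPKM + 0.1), and standard errors (SE) are those of the authors' deposited log2 fold, which lies close to it at these levels.

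No endothelial or angiogenic gene was called different between the groups, but most stood slightly higher in the running mice. With the q-value of the authors' deposited table under 0.05, 0 of the 40 genes were called. Over the 15508 tested genes the share called was 0.941% (0.445% higher and 0.497% lower in running mice). At so low a share, 0 calls among 40 genes do not set them apart from tested genes at large. At an unadjusted p under 0.05 in the authors' deposited table the count was 6, all higher in running mice, beside a background of 5.65% in either direction, 3.42% higher and 2.22% lower. All 6 had a test statistic (the fold divided by its SE) under 1.96 in size, a limit that 1.19% of tested genes passed. A positive log2 fold was found for 34 of the 40 genes, against 48.2% of tested genes and 47.9% of those of at least 1 FPKM, and the median log2 fold was 0.19, against -0.0067 over the tested genes. Many of the 40 genes are known from the same cell type, the endothelium, so their folds cannot be taken as independent of each other. Some, such as Vegfa and Angpt1, are also products of other cells. In bulk RNA, more endothelial cells and more RNA per cell cannot be told apart. The intervals of the 2 groups overlapped for all 40 genes, where they were apart for 0.574% of tested genes. The range of ± 2 SE around the log2 fold included 0 for all 40.

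**Figure D1:**
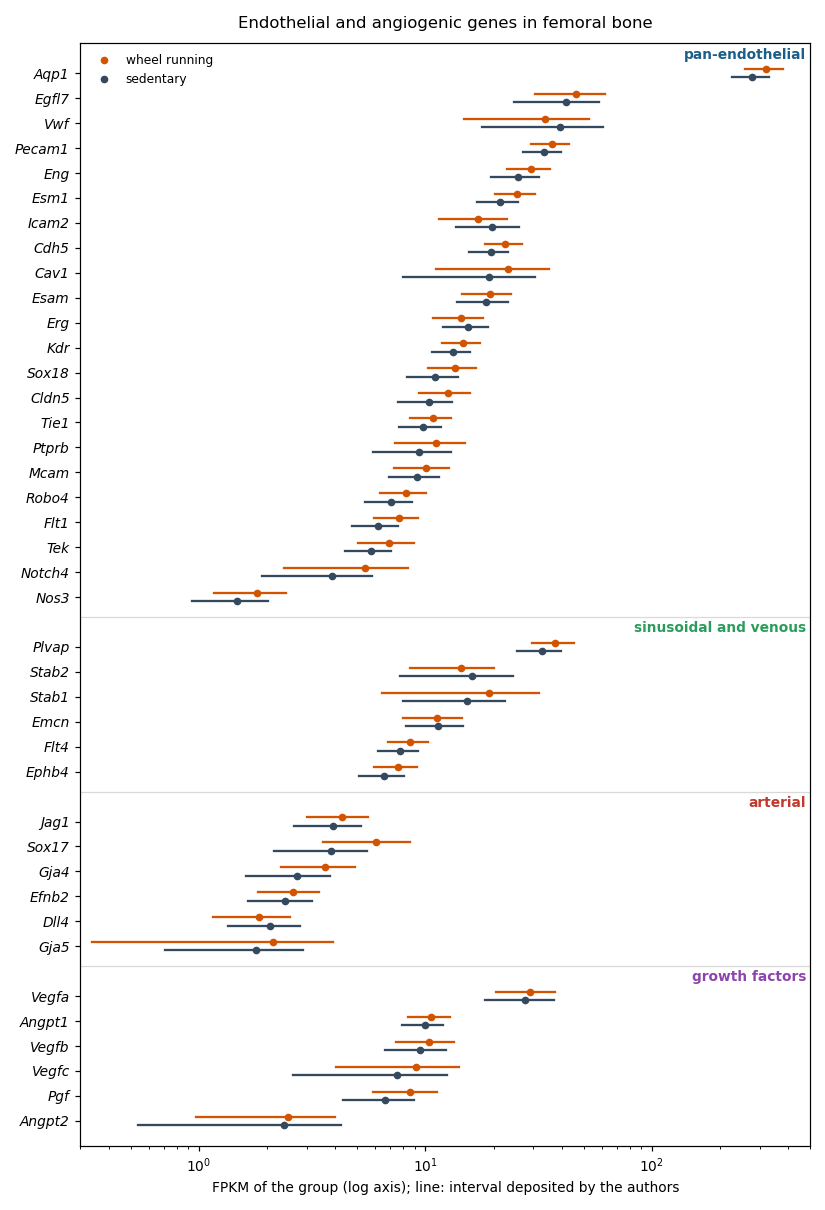
FPKM of each gene in wheel running (upper, orange) and sedentary (lower, dark) mice on a log axis, with lines for the interval deposited by the authors, grouped by class and ordered by the sedentary level. Aqp1 stands apart from the rest at 318 FPKM in running and 278 FPKM in sedentary mice, and the intervals of the 2 groups overlap for every gene.

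The levels spanned more than 2 orders of magnitude. Aqp1, the water channel of capillary endothelium and also of red cells, was the most abundant at 318 FPKM in running mice (interval 257 to 379) and 278 FPKM in sedentary mice (225 to 331). Nos3, which encodes the endothelial nitric oxide synthase, was the least abundant at 1.799 FPKM in running and 1.48 FPKM in sedentary mice. When the 40 genes were ordered by level, 38 of the 39 pairs of neighbours had overlapping intervals in each group, and the exception in each was the step between Aqp1 and Egfl7. The order itself was close in the 2 groups: 36 genes moved by at most 2 places, and the largest shift was 4 places, for Icam2. At or above 20 FPKM in both groups were Aqp1, Egfl7, Plvap, Pecam1, Vwf, Eng, Vegfa and Esm1. Under 5 FPKM in both were Nos3, Angpt2 and the arterial genes except Sox17. Summed over the 40 genes, the level was 877 FPKM in running and 788 FPKM in sedentary mice, and without Aqp1 it was 558 FPKM in running and 511 FPKM in sedentary mice.

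Among the 22 genes of endothelium in general, 19 had a positive log2 fold, with a median of 0.20. The junction genes Cdh5, Pecam1, Cldn5 and Esam had positive log2 folds, between 0.06 and 0.27. Icam2, an adhesion gene of the same class described below, had a log2 fold of -0.20. Cdh5 (chr8:104101625-104144511, GRCm38), which encodes VE-cadherin, the adhesion molecule of endothelial junctions, had 22.5 FPKM in running mice (18.3 to 26.8) and 19.4 FPKM in sedentary mice (15.7 to 23.1). Its log2 fold was 0.22 with an SE of 0.20, and in the authors' deposited table its unadjusted p was 0.0486 and its q 0.882. Pecam1, which encodes CD31 and is also made by platelets and leukocytes, had 36.2 FPKM in running and 33.4 FPKM in sedentary mice. Cldn5, a tight junction claudin, had 12.5 FPKM in running and 10.4 FPKM in sedentary mice, and Esam, a junctional adhesion molecule, 19.2 FPKM in running and 18.5 FPKM in sedentary mice. For Cdh5, Pecam1, Cldn5 and Esam the value was higher in the running group, within overlapping intervals.

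The VEGF receptors all had positive log2 folds. Flt1 (chr5:147561604-147726011, GRCm38), which encodes VEGFR1, a high-affinity receptor that also exists as a soluble decoy, had 7.61 FPKM in running mice (5.94 to 9.29) and 6.17 FPKM in sedentary mice (4.73 to 7.60). Its log2 fold was 0.30 with an SE of 0.23, and in the authors' deposited table its unadjusted p was 0.01435 and its q 0.518. Kdr, which encodes VEGFR2, the main signalling receptor of VEGF-A, had 14.6 FPKM in running and 13.2 FPKM in sedentary mice. Kdr therefore stood above Flt1 in each group, at a ratio of 1.92 in running and 2.14 in sedentary mice, and the change in that ratio, -0.16 on the log2 scale, was smaller than its SE of 0.30 if the 2 genes vary independently. The gene of the angiopoietin receptor TIE2, Tek, had 6.95 FPKM in running and 5.75 FPKM in sedentary mice, and Tie1, its orphan partner, 10.8 FPKM in running and 9.72 FPKM in sedentary mice. Ptprb, the phosphatase VE-PTP that dephosphorylates TIE2, had 11.1 FPKM in running and 9.41 FPKM in sedentary mice. The log2 folds of these 3 genes lay between 0.15 and 0.27, each about the size of its SE or smaller.

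Genes of secreted and surface proteins of the endothelium showed the same small offset, with exceptions. Esm1 (chr13:113209659-113218098, GRCm38), which encodes the proteoglycan endocan and is known from sprouting tip cells, had 25.3 FPKM in running mice (20.2 to 30.4) and 21.3 FPKM in sedentary mice (16.9 to 25.7). Its log2 fold was 0.25 with an SE of 0.21, and in the authors' deposited table its unadjusted p was 0.0350 and its q 0.777. Egfl7, a secreted vascular matrix protein, had 46.2 FPKM in running and 41.7 FPKM in sedentary mice. Eng (endoglin, a co-receptor of the TGF-beta family) had 29.2 FPKM in running and 25.5 FPKM in sedentary mice. Vwf, which encodes von Willebrand factor and is also made by megakaryocytes, went the other way, with 33.8 FPKM in running mice (14.8 to 52.9) and 39.3 FPKM in sedentary mice (17.8 to 60.8). Icam2, an adhesion molecule that platelets and leukocytes also carry, had 17.2 FPKM in running mice (11.5 to 22.8) and 19.8 FPKM in sedentary mice (13.7 to 25.8). Their log2 folds of -0.22 and -0.20 had SEs of 0.57 and 0.33, so neither was clear of 0.

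Mcam, Robo4, Cav1, Notch4 and Nos3, of the same class, had positive log2 folds. Mcam (CD146) had 10.03 FPKM in running and 9.23 FPKM in sedentary mice, Robo4, a guidance receptor that stabilises vessels, 8.18 FPKM in running and 7.07 FPKM in sedentary mice, and Cav1, the main protein of caveolae, which fat and muscle also express, 23.2 FPKM in running and 19.2 FPKM in sedentary mice. Notch4 (chr17:34564268-34588503, GRCm38), an endothelial Notch receptor, had 5.40 FPKM in running mice (2.38 to 8.42) and 3.87 FPKM in sedentary mice (1.90 to 5.83). Its log2 fold of 0.47 was the highest of the 22, but its SE was 0.55, and in the authors' deposited table its unadjusted p was 0.0491 and its q 0.883. Nos3 had a log2 fold of 0.27 with an SE of 0.37.

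The transcription factors of the class diverged within their errors. Sox18 (chr2:181669836-181671640, GRCm38), a SOX factor of developing blood and lymph vessels, had 13.5 FPKM in running mice (10.2 to 16.7) and 11.1 FPKM in sedentary mice (8.26 to 13.9), a log2 fold of 0.28 with an SE of 0.25. In the authors' deposited table its unadjusted p was 0.0481 and its q 0.880. Erg, an ETS factor that maintains endothelial identity and is also active in blood stem cells, had 14.4 FPKM in running mice (10.8 to 17.9) and 15.4 FPKM in sedentary mice (11.9 to 18.9), a log2 fold of -0.10 with an SE of 0.24.

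**Figure D2:**
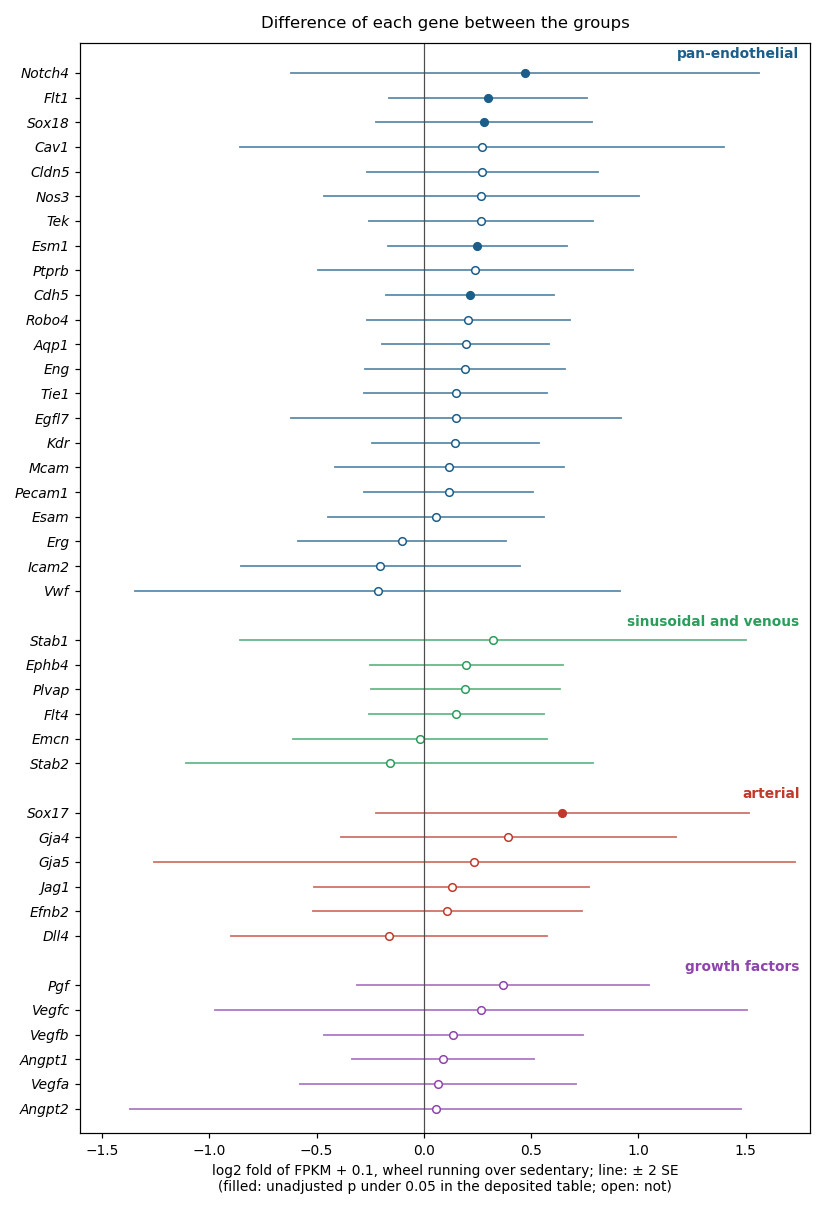
Log2 fold of each gene, wheel running over sedentary, with ± 2 SE, by class and in order of the fold. Filled points have an unadjusted p under 0.05 in the authors' deposited table (6 genes), and every line crosses 0.

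Of the 6 sinusoidal and venous genes, 4 had a positive log2 fold, with a median of 0.17. Plvap, which forms the diaphragms of fenestrated endothelium, was the most abundant, with 37.3 FPKM in running mice (29.5 to 45.2) and 32.6 FPKM in sedentary mice (25.4 to 39.9). The stabilins, scavenger receptors of sinusoids, pointed in opposite directions. Stab1, which macrophages also express, had 19.1 FPKM in running mice (6.44 to 31.8) and 15.3 FPKM in sedentary mice (7.98 to 22.6), while Stab2 had 14.3 FPKM in running mice (8.55 to 20.1) and 16.02 FPKM in sedentary mice (7.72 to 24.3). The ratio of Stab1 to Stab2 was 1.33 in running and 0.954 in sedentary mice, a change of 0.48 on the log2 scale that was smaller than its SE of 0.76 if the genes vary independently. Emcn, which encodes endomucin, the marker used for bone capillary subtypes, had 11.3 FPKM in running and 11.4 FPKM in sedentary mice. Its log2 fold of -0.0180 turned to 0.0245 when the groups were scaled to the same total. Flt4 (VEGFR3, the receptor of VEGF-C in lymphatic and sinusoidal endothelium) had 8.57 FPKM in running and 7.70 FPKM in sedentary mice, and Ephb4, the ephrin receptor of veins, 7.55 FPKM in running and 6.57 FPKM in sedentary mice.

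Among the 6 arterial genes, 5 had a positive log2 fold, with a median of 0.18, and this class was the least abundant, with a sum of 20.5 FPKM in running and 16.7 FPKM in sedentary mice. Sox17 (chr1:4490931-4497354, minus strand, GRCm38), a SOX factor of arterial endothelium, had the highest fold of all 40 genes. It had 6.05 FPKM in running mice (3.55 to 8.54) and 3.83 FPKM in sedentary mice (2.15 to 5.51), which is 1.58-fold and a log2 fold of 0.65 with an SE of 0.43. In the authors' deposited table its unadjusted p was 0.00745, the smallest of the 40, and its q 0.348. The gap junction genes of arterial endothelium followed, Gja4 (connexin 37) with 3.59 FPKM in running and 2.71 FPKM in sedentary mice and Gja5 (connexin 40) with 2.12 FPKM in running and 1.79 FPKM in sedentary mice. The SE of the log2 fold was 0.39 for Gja4 and 0.75 for Gja5, against log2 folds of 0.39 and 0.24.

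The Notch ligands and the ephrin of the class did not share a direction. Dll4, the Notch ligand of arteries and tip cells, had 1.84 FPKM in running mice (1.16 to 2.52) and 2.07 FPKM in sedentary mice (1.34 to 2.80), a log2 fold of -0.16 with an SE of 0.37. Jag1, a ligand that opposes DLL4 in sprouting, had 4.28 FPKM in running and 3.90 FPKM in sedentary mice, and Efnb2, the arterial ephrin-B2 that binds EPHB4, 2.60 FPKM in running and 2.41 FPKM in sedentary mice. The ratio of Jag1 to Dll4 was 2.32 in running and 1.88 in sedentary mice, a change of 0.30 on the log2 scale with an SE of 0.49 if independent. The ratio of Ephb4 to Efnb2 was 2.90 in running and 2.73 in sedentary mice.

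Promoter stretches are shown for the genes with an unadjusted p under 0.05 that have an entry in the RefSeq promoter table, Flt1, Esm1 and Notch4, and for Dll4, the entry with the lowest log2 fold. Each is the 250 bases before the transcription start on GRCm38.p6, read 5′ to 3′ on the gene's strand, and capitals mark 3 motifs searched on both strands: AGGAAG, a core bound by ETS factors such as ERG, ACAAT, a core bound by SOX factors, and GTGGGAA, bound by RBPJ, the DNA-binding partner of Notch.
Flt1, chr5:147726012-147726261, minus strand: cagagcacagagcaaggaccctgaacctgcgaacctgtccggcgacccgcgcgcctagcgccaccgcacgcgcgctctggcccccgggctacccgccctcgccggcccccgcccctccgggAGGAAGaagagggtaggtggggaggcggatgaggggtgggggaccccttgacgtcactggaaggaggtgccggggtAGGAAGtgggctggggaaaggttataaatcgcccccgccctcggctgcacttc
Esm1, chr13:113209409-113209658, plus strand: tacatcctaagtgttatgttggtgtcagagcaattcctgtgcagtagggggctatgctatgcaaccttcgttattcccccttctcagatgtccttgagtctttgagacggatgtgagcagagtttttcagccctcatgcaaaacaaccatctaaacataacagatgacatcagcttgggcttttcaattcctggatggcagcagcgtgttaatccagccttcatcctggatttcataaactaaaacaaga
Notch4, chr17:34564045-34564294, plus strand: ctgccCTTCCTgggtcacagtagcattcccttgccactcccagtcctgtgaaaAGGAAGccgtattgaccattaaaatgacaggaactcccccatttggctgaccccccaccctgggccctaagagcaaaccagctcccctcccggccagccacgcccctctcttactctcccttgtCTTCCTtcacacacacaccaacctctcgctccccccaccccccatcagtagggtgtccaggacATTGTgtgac
Dll4, chr2:119325534-119325783, plus strand: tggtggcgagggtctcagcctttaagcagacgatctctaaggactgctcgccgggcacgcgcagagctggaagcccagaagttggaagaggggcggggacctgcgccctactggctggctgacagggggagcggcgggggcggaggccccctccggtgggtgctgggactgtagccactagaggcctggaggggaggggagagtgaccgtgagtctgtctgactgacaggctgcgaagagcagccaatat
The Flt1 stretch held AGGAAG at positions -129 to -124 and -53 to -48, counted from the start. The Notch4 stretch held the same core in 3 places, the nearest at -73 to -68, and ACAAT in reverse at -10 to -6. These positions count from the RefSeq start. The stretch ends at 34564294, past the gene start of 34564268 given above, so its last bases, with ACAAT, lie inside those gene coordinates. The Esm1 and Dll4 stretches held none of these letters. Of the 40 genes, 28 had an entry, with 35 windows. AGGAAG was found in 13 of the 35 windows, 37.1%, and in 29.5% of all 32851 windows of that length. ACAAT was in 7 of the 35 windows, against 27.7% of all, and GTGGGAA in 2 windows (Kdr and Tie1), 5.71%, against 5.42% of all.

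All 6 growth factor genes had a positive log2 fold, none far from 0, with a median of 0.11. Vegfa, the main angiogenic ligand and in bone a product of osteoblasts, chondrocytes and blood cells, had 28.9 FPKM in running mice (20.5 to 37.4) and 27.6 FPKM in sedentary mice (18.3 to 36.9), a log2 fold of 0.07 with an SE of 0.32. Pgf, which encodes placental growth factor, a ligand of VEGFR1 alone among the VEGF receptors, had 8.57 FPKM in running mice (5.85 to 11.3) and 6.61 FPKM in sedentary mice (4.32 to 8.91). Its log2 fold of 0.37 with an SE of 0.34 was the highest of the class, and in the authors' deposited table its unadjusted p was 0.05535. Vegfb, another VEGFR1 ligand, had 10.4 FPKM in running and 9.45 FPKM in sedentary mice, and Vegfc, the lymphatic ligand, 9.08 FPKM in running and 7.53 FPKM in sedentary mice. Vegfa thus remained the most abundant VEGF gene, at 3.38 times the level of Pgf in running and 4.17 times in sedentary mice. The 4 VEGF ligand genes summed to 57.0 FPKM in running and 51.2 FPKM in sedentary mice, and the genes of their 3 receptors to 30.8 FPKM in running and 27.1 FPKM in sedentary mice.

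The angiopoietin genes Angpt1, Angpt2 and Angpt4 had positive log2 folds, and none was called, beside 0.941% of tested genes. Angpt1, the TIE2 agonist that stromal cells and megakaryocytes release, had 10.6 FPKM in running mice (8.40 to 12.8) and 9.95 FPKM in sedentary mice (7.87 to 12.02). Angpt2, the context-dependent antagonist stored by endothelial cells, had 2.48 FPKM in running mice (0.968 to 4.001) and 2.39 FPKM in sedentary mice (0.537 to 4.23). The ratio of Angpt1 to Angpt2 was 4.27 in running and 4.17 in sedentary mice, a change of 0.03 on the log2 scale, but with an SE of 0.74 if independent this leaves room for a change in either direction.

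The precision differed widely among the genes. The deposited interval reached from 19.0% of the level to either side (Cdh5) up to 84.0% (Gja5) in running mice, and from 19.0% (Aqp1) up to 77.5% (Angpt2) in sedentary mice. The median was 29.1% in running and 29.2% in sedentary mice. The SE of the log2 fold was over 0.5 for 7 genes, Notch4, Vwf, Cav1, Stab1, Gja5, Vegfc and Angpt2, and its median was 0.30. The largest test statistic of the 40 was 1.52, that of Sox17. In the annotation, exons of 11 of the 40 genes overlap exons of another gene. Among them are Egfl7 with Gm20532, Mir126a, Mir126b and Agpat2, Eng with Fpgs, Stab1 with Nt5dc2, Nos3 with Atg9b and Sox17 with Gm37587. Only Egfl7 has such overlaps on its own strand, with 2 genes, where strand would not separate the fragments. The sources used here do not say whether strand entered the counting. The values of the 11 genes could hold fragments of their neighbours.

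Other vascular genes, in lists of the same pathways, were also mostly uncalled. Of 29 tested further endothelial genes, 1 was called, higher (0.445% of tested genes were), and 23 had a positive log2 fold, with a median of 0.17. At an unadjusted p under 0.05 in the authors' deposited table, 8 of the 29 were higher and 0 lower, beside 3.42% and 2.22% of tested genes. The called gene was Gpihbp1 (chr15:75596628-75599481, GRCm38), which encodes the protein that anchors lipoprotein lipase to capillary walls. Gpihbp1 had 32.6 FPKM in running mice (24.3 to 41.03) and 22.01 FPKM in sedentary mice (16.1 to 27.9), a log2 fold of 0.57 with an SE of 0.27, with a q of 0.0332 in the authors' deposited table, although the 2 intervals overlapped. Lmo2, a transcriptional partner also of blood cells, was the most abundant of the list, with 162 FPKM in running and 161 FPKM in sedentary mice. Cdh13 (T-cadherin) had the highest fold, with 7.67 FPKM in running and 4.72 FPKM in sedentary mice, and Ecscr, a regulator of endothelial migration, the lowest, with 5.03 FPKM in running and 7.21 FPKM in sedentary mice. Neither passed the test in the authors' deposited table, where q was 0.309 for Cdh13.

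Among 29 tested partners of VEGF, angiopoietin and Notch signalling, none was called, beside 0.941% of all tested genes. Of the 29, 22 had a positive log2 fold, and the median was 0.11. An unadjusted p under 0.05 in the authors' deposited table was found for 2 higher and 1 lower of the 29. Over all tested genes the shares were 3.42% higher and 2.22% lower. Thbs1, which encodes the angiogenesis inhibitor thrombospondin 1, also stored in platelets, was the most abundant and was the lower one, with 107 FPKM in running and 126 FPKM in sedentary mice. The highest fold among genes of at least 1 FPKM was that of the Notch ligand gene Dll1 (2.63 FPKM in running and 1.66 FPKM in sedentary mice), and the lowest that of the lymphatic growth factor gene Vegfd (0.759 FPKM in running and 1.14 FPKM in sedentary mice), both with SEs larger than their folds.

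Of 9 tested genes of venous, lymphatic and inflamed endothelium, none was called, beside 0.941% of all tested genes. A positive log2 fold was found for 6 of the 9, with a median of 0.07. The unadjusted p in the authors' deposited table was under 0.05 for 3 of the 9, all higher, beside 3.42% of tested genes. Sele, which encodes E-selectin, constitutively present on marrow endothelium, was nearest to the threshold, with 5.75 FPKM in running mice (4.29 to 7.20) and 3.98 FPKM in sedentary mice (2.87 to 5.10). Its q was 0.0949 in the authors' deposited table. Vcam1, which marrow stroma and macrophages express as well, was the most abundant, with 213 FPKM in running and 171 FPKM in sedentary mice, and Lrg1 had the lowest fold, with 56.4 FPKM in running and 63.1 FPKM in sedentary mice. Lymphatic genes were low. Prox1, the lymphatic master regulator, stood at 0.0805 FPKM in running and 0.0849 FPKM in sedentary mice and was not tested by the authors, and Lyve1 had 2.09 FPKM in running and 1.47 FPKM in sedentary mice. Pdpn, which lymphatic endothelium and young osteocytes are known to express, is listed at 0 in both groups and was not tested by the authors. That listing is not taken here as absence of expression.

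**Figure D3:**
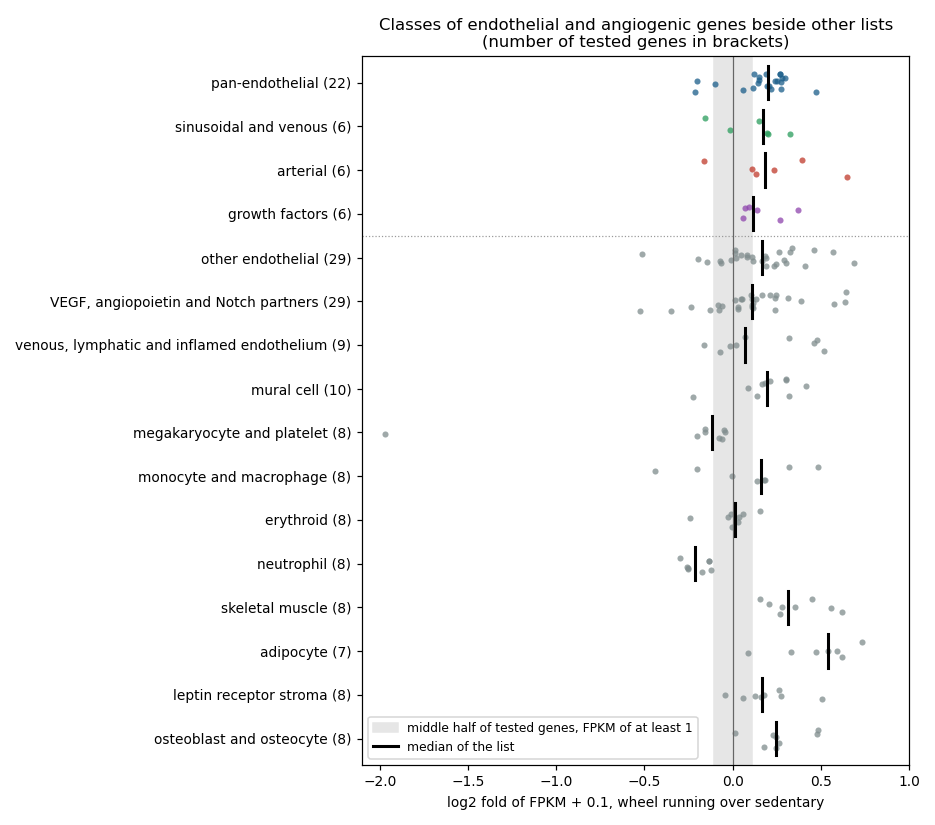
Log2 folds, wheel running over sedentary, of the tested genes in the 4 classes (coloured) and in 12 other lists (grey), with a bar at each median and a band for the middle 50% of tested genes of at least 1 FPKM (-0.11 to 0.11). The medians of the 4 classes lie at 0.20, 0.17, 0.18 and 0.11, between those of neutrophil (-0.21) and adipocyte genes (0.54).

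Positive medians were also found for mural, osteoblast and osteocyte, stromal, muscle and adipocyte genes, and for those of monocytes and macrophages. The median of erythroid genes was near 0, and those of megakaryocyte and neutrophil genes lay below 0. Mural cells, the pericytes and smooth muscle that wrap vessels, had positive log2 folds in 9 of 10 genes, a median of 0.20 and summed levels of 163 FPKM in running and 139 FPKM in sedentary mice. None of the 10 was called, beside 0.941% of tested genes. At an unadjusted p under 0.05 in the authors' deposited table, 3 of the 10 were higher, beside 3.42% of tested genes. Their most abundant gene, Rgs5, had 47.2 FPKM in running and 42.01 FPKM in sedentary mice, and their lowest fold was that of Kcnj8 (4.22 FPKM in running and 4.94 FPKM in sedentary mice). Des, also a muscle gene, had the highest fold, with 36.1 FPKM in running and 27.1 FPKM in sedentary mice and a q of 0.0517 in the authors' deposited table. The median log2 fold was 0.25 for osteoblast and osteocyte genes (8 of 8 positive), 0.17 for leptin receptor stroma (7 of 8, sums 1113 FPKM in running and 980 FPKM in sedentary mice), 0.32 for skeletal muscle (8 of 8, sums 1682 FPKM in running and 1372 FPKM in sedentary mice) and 0.54 for adipocyte genes (7 of 7, sums 503 FPKM in running and 350 FPKM in sedentary mice). It was -0.12 for megakaryocyte and platelet genes (0 of 8, sums 1514 FPKM in running and 1648 FPKM in sedentary mice), -0.21 for neutrophil genes (0 of 8), 0.02 for erythroid genes (4 of 8, sums 9578 FPKM in running and 9102 FPKM in sedentary mice) and 0.16 for monocytes and macrophages (5 of 8, sums 1001 FPKM in running and 1011 FPKM in sedentary mice). None of these markers was at 0 in both groups. Called higher in the authors' deposited table were Myh1, Myh2 and Tcap (3 of 8 muscle genes). So were Adipoq, Fabp4 and Cfd (3 of 7 fat genes) and Lepr (1 of 8 stromal genes). Mepe and Sost of osteocytes (2 of 8 bone genes) and Cd163 of macrophages (1 of 8) were further higher calls, beside 0.445% of tested genes. Called lower were Treml1 of megakaryocytes (1 of 8) and Ccr2 of monocytes (1 of 8), beside 0.497% of tested genes. No erythroid or neutrophil gene was called. The part of these cell types in the values of the endothelial genes was not tested. Vwf, Icam2 and Erg, which blood cells also express, were the 3 genes of endothelium in general with negative log2 folds, whereas Pecam1, Aqp1 and Esam, which blood cells express as well, had positive ones.

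Members lie within 1 Mb of each other in 2 pairs, of which 1 had folds of opposite sign. Icam2 and Pecam1, 266 kb apart on chromosome 11, had log2 folds of -0.20 (SE 0.33) and 0.12 (SE 0.20). Robo4 and Esam, 113 kb apart on chromosome 9, had log2 folds of 0.21 (SE 0.24) and 0.06 (SE 0.25). Each of these folds was smaller than its SE, so none of the signs is settled.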

How the data were processed

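Polyadenylated RNA of 6 femoral bones was sequenced, per the labels' protocols. Trimmomatic 0.39, HISAT2 2.2.1, SAMtools 1.10, Cufflinks 2.2.1 and build GRCm38 are named in the submitters' processing notes, without roles. The authors deposited 1 FPKM per group and gene with the bounds of an interval, and the columns are those of Cuffdiff, per the file headers. For each gene the authors' deposited columns further give a log2 fold, a score (the test statistic), the p-value and the q-value, and 15508 of 55484 genes were tested. The call is that q under 0.05, taken over all tested genes. No test between mice could be made, since 0 columns hold single libraries; whether libraries are separate animals rests on the design text.

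Log2 folds were computed from the deposited FPKM with a pseudocount of 0.1. The SE is the deposited log2 fold divided by the test statistic. For 15490 genes it was between 0.99996 and 1.00003 times the SE found when the interval is read as ± 2 standard deviations. Over tested genes, 702 of the 876 with p under 0.05 had a test statistic under 1.96 in size, among them all 6 endothelial genes, so the deposited p is smaller than a normal p of the same statistic. Depth was read from single-exon genes over 1500 bp, with 250 bp taken off the length. Coordinates are GENCODE release 21 for mouse (GRCm38), and promoters are RefSeq, GRCm38.p6. The adjustment and list summaries were tested on simulated data. Python 3.11.15, pandas 2.3.3 and numpy 2.4.6 were used.

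The members, the classes and the lists were chosen with earlier results of these data known. All 40 members are named. Of the vascular and mural lists, called genes, the most abundant gene and the highest and lowest folds at 1 FPKM or more are named. Angpt4, Lyve1, Prox1 and Pdpn were named, and the printed promoters chosen, after their values were seen. Lists of cells outside vessels are given by counts, medians and sums, and only their called genes are named. For 1 symbol with several IDs, the most expressed was used. Alternatives were other q thresholds, pseudocounts, scalings and FPKM minimums.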

Additional observations from a re-analysis of the deposited data

How the results depend on the processing

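No gene of the 40 was called with q under 0.01 or under 0.1, with q recomputed over tested genes of at least 1 FPKM, or with intervals apart. An unadjusted p under 0.05 gave 6. Taking only test statistics past 1.96, a limit chosen after seeing the data, gave 0, beside 1.19% of tested genes. All of these reuse the authors' deposited test and are no separate check. Scaling the groups to the same total added 0.04 to each log2 fold and turned Emcn from -0.0180 to 0.0245, so that 35 genes were positive instead of 34; the other 159 of 160 recomputed folds under 2 other pseudocounts and 2 scalings kept their direction. The median of the arterial genes was 0.65 when genes of at least 5 FPKM were kept, since this leaves Sox17 alone. The medians of the other classes and vascular lists moved by less than their median SE. No paired analysis was possible because each group is a single pooled column without replicate numbers. Fits that leave out libraries were likewise not run, and a value carried by 1 mouse could not be detected.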
